A study of Homo sapiens with 22 samples.

Results

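Of the 10989 regions that N-MYC antibody repeatedly recovered from control-treated CHP-134 neuroblastoma cells, 7442 lay at promoters, and 2815 of these promoter regions held neither the canonical E-box hexamer CACGTG nor a WDR5 peak. These 2815 regions, called lone sites here, are described below in all 16 deposited peak lists. A lone site is a merged N-MYC peak that at least 2 of the 3 DMSO N-MYC libraries listed, with its centre within 1 kb of an annotated transcription start site (TSS) of a protein-coding or lncRNA gene. It overlapped no peak of the 3 DMSO WDR5 lists, and CACGTG was nowhere in the merged region. The sites were thus chosen by their DMSO N-MYC and WDR5 listing, their TSS distance and the missing hexamer, and values on those measures are description and not findings. The other promoter regions serve as comparators: 1440 E-box sites (CACGTG, no DMSO WDR5 peak), 1727 WDR5 sites (WDR5 peak, no CACGTG) and 1460 regions with both.

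The study used chromatin immunoprecipitation and sequencing (ChIP-seq) to map where N-MYC, the MYC-family oncoprotein amplified in high-risk neuroblastoma, is found with and without WDR5. CHP-134 cells, an established N-MYC-amplified neuroblastoma line, received DMSO vehicle or a compound for 4 h before chromatin was collected, with 3 N-MYC and 3 WDR5 libraries per treatment. IMR-32 cells, a second established N-MYC-amplified line, were untreated and gave 2 libraries per antibody, N-MYC replicates 1 and 2 and WDR5 replicates 1 and 3. N-MYC was recovered with a custom serum and WDR5 with a commercial antibody, and each library pooled material from 3 ChIPs. The labels name the compound in different ways (C38b in the titles, 419C91 as the agent), so it is called the compound here. CHP-134 was sequenced as single reads and IMR-32 as read pairs on another instrument, so cell line and sequencing run cannot be told apart. The IgG libraries were not analysed here. The lists held 2964 to 15286 N-MYC peaks and 15 to 5973 WDR5 peaks each, and sequencing depth is unknown from them. A region without a listed peak is therefore a region not called in that library, not one shown to be free of the protein. The study's methods say that the ChIP-seq was repeated independently, and the labels do not tie libraries to separate cultures, so p-values measure the spread between these libraries, which may be partly technical.

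As background, MYC proteins bind DNA as heterodimers with MAX through a basic helix-loop-helix leucine zipper. The heterodimer prefers the E-box CACGTG, and related non-canonical hexamers are bound more weakly. WDR5, a WD40-repeat scaffold of the MLL/SET1 histone methyltransferase complexes, binds a conserved box of MYC and has been described as a chromatin-resident partner at a set of protein synthesis genes. The lone sites are thus promoters where neither of these best known features was seen.

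The sequences around the N-MYC summit are shown for the 8 lone sites of highest mean DMSO percentile of fold, because they show what letters lie under strong peaks that have no CACGTG. Coordinates are hg19 (GRCh37), the plus strand is printed 5′ to 3′, and the window reaches 100 bp to each side of the summit. For PEMT, MTHFD2 and PPAN, whose windows reach into untranslated exon, a stretch of 30 bases is given. It was placed to hold the most of the MYC-type variants listed next. Capitals mark every match to the general E-box form CANNTG or to one of 5 MYC-type variants, searched on both strands: CACGCG with reverse complement CGCGTG, then CATGCG with CGCATG, then CACGAG with CTCGTG, then CACATG with CATGTG, and then CAACGTG with CACGTTG. The fourth of these, CACATG, is at once an E-box form and a variant, and the NRF1 motif GCATGCGC contains CATGCG. The 5 variants are hexamers and a heptamer known from earlier MYC work and were taken up after the data had been seen.
TBL1XR1 chr3:176915723-176915923: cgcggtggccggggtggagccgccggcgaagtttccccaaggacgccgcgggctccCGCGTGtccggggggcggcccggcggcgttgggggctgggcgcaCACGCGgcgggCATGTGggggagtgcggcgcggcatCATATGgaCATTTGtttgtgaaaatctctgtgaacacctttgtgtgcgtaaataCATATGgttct
PEMT chr17:17494962-17494991: acCACGCGggccccgctgcagcCACGCGcc
NOLC1 chr10:103912370-103912570: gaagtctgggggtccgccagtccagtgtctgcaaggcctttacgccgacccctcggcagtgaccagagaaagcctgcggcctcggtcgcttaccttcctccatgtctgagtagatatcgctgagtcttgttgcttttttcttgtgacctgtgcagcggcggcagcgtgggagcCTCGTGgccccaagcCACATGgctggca
MTHFD2 chr2:74425697-74425726: gcCACGAGgccgcagtataacCGCGTGgcc
NCOA7 chr6:126101889-126102089: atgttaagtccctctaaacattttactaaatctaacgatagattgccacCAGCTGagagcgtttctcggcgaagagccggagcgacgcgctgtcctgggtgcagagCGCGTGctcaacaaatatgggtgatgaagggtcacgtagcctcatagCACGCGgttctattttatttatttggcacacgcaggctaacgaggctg
PPAN chr19:10217049-10217078: gcCTCGTGgaggacacagcagcatgggaca
TXNIP chr1:145438284-145438484: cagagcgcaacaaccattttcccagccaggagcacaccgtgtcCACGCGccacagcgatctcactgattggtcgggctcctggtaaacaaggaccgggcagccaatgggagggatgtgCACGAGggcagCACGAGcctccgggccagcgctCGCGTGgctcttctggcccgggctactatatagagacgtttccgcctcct
HNRNPL chr19:39339868-39340068: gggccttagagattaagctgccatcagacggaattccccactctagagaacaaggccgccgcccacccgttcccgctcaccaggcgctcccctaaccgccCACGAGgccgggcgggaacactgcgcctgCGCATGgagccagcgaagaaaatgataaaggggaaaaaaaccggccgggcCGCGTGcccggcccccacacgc

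All 8 full windows held a variant, 7 held at least 2 occurrences, and 6 held CACGCG. Over all lone sites 58.2% held a variant and 32.1% held CACGCG. In the bin of DMSO percentile from 80 to 100, where these 8 lie, 85.2% held a variant. At TBL1XR1 a CACGCG began exactly at the summit (position 0), and at HNRNPL a CACGAG did. At NCOA7 a CGCGTG began 6 bp to the right of the summit. The variants at PEMT lay farther off, with CACGCG beginning at -78 and -58 bp. NOLC1 had CTCGTG at 73 and CACATG at 88 bp, and PPAN had CTCGTG at -64 bp. The stretches printed for PEMT and PPAN do not reach the summit. At TXNIP, CACGAG began at 18 and again at 29 bp from the summit. That pair is the known carbohydrate response element, a target of MondoA or ChREBP with MLX, relatives of MYC and MAX, which is background and not a reading of these data. A match is a description of letters, and whether N-MYC contacts it was not measured.

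The 10 lone sites of highest mean DMSO percentile (the rank of a peak's fold enrichment among all peaks of its own list, from 0 to 100) were all listed in all 8 N-MYC lists. Only sites in all 3 DMSO N-MYC lists were ranked, so those 3 listings were fixed by the choice. DMSO fold also chose these 10 sites, so only their values in the 5 other lists add to it. TBL1XR1, a subunit of the NCoR/SMRT corepressor, had the highest DMSO folds, 20.7, 21.8 and 22.6 over background in replicates 1 to 3, at chr3:176915517-176916113. Its percentiles were 99.3, 97.7 and 99.8 in the compound libraries and 88.8 and 91.2 in IMR-32. It lay upstream of its TSS, outside annotated genes, with the summit at position -553 from it. So the strongest lone site stayed near the top of the compound N-MYC lists and ranked lower in IMR-32, and no WDR5 list held it.

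MTHFD2, the mitochondrial one-carbon enzyme, had DMSO folds of 12.6, 14.2 and 20.3. Its percentiles were 96.7, 91.0 and 99.3 with compound and 99.5 and 98.0 in IMR-32. PEMT, which makes phosphatidylcholine from phosphatidylethanolamine, had DMSO folds of 13.8, 14.9 and 15.2. It stood at 96.7, 95.1 and 96.8 with compound and at 99.8 and 94.6 in IMR-32. Both metabolic genes thus stayed above 90 in each N-MYC list.

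TXNIP, the glucose-responsive inhibitor of thioredoxin, had DMSO folds of 14.1, 9.53 and 17.9, at percentiles of 98.3, 92.5 and 99.3. In the libraries that the choice did not use it had the highest mean percentile of all lone sites listed in all 5, at 97.9. The single percentiles were 98.8, 94.3 and 99.6 with compound and 97.8 and 99.3 in IMR-32. NOLC1, a nucleolar chaperone of small nucleolar ribonucleoproteins, had DMSO folds of 14.2, 15 and 14.6, at percentiles of 98.4, 98.9 and 98.2. It ranked lower in IMR-32, at 76.8 and 80.6, than in the compound libraries, at 98.4, 96.2 and 98.2.

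PPAN, a maturation factor of the large ribosomal subunit, had DMSO folds of 11.8, 12 and 12.9 and IMR-32 percentiles of 98.7 and 82.4. HNRNPL, a splicing regulator, had folds of 12.5, 11 and 12.7 and IMR-32 percentiles of 99.3 and 95. Both genes, of ribosome and RNA metabolism, were thus high in both lines. ACYP2, an acylphosphatase, had folds of 13.4, 15.1 and 8.78 and stood lower in IMR-32, at 72.8 and 64.2.

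NCOA7, a nuclear receptor coactivator, had DMSO folds of 12.9, 12 and 14.5 and compound percentiles of 95.8, 93.4 and 98.7. In IMR-32 its percentiles were 58.7 and 4.77, the widest gap between cell lines among the 10. It was also listed in both IMR-32 WDR5 lists, at percentiles of 35.1 and 33.1, although no DMSO WDR5 list held it. Of the 10 sites, 8 were in no WDR5 list.

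N-MYC was listed again at most lone sites in compound replicates 1 and 3, and at fewer in IMR-32 and in compound replicate 2. In the compound libraries 68.0%, 12.1% and 79.1% of the 2815 sites (replicates 1, 2 and 3) overlapped an N-MYC peak. In IMR-32 the shares were 42.5% and 25.8%. The same shares over all 7442 N-MYC promoter sites were 79.4%, 27.1% and 85.5% with compound and 56.1% and 41.1% in IMR-32. The lone sites were thus below the promoter background in each of these 5 libraries. Compound replicate 2 was the shortest N-MYC list, with 2964 peaks against 11249 and 12313 in the other compound libraries, and how far peak number sets these shares was not tested.

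**Figure D1:**
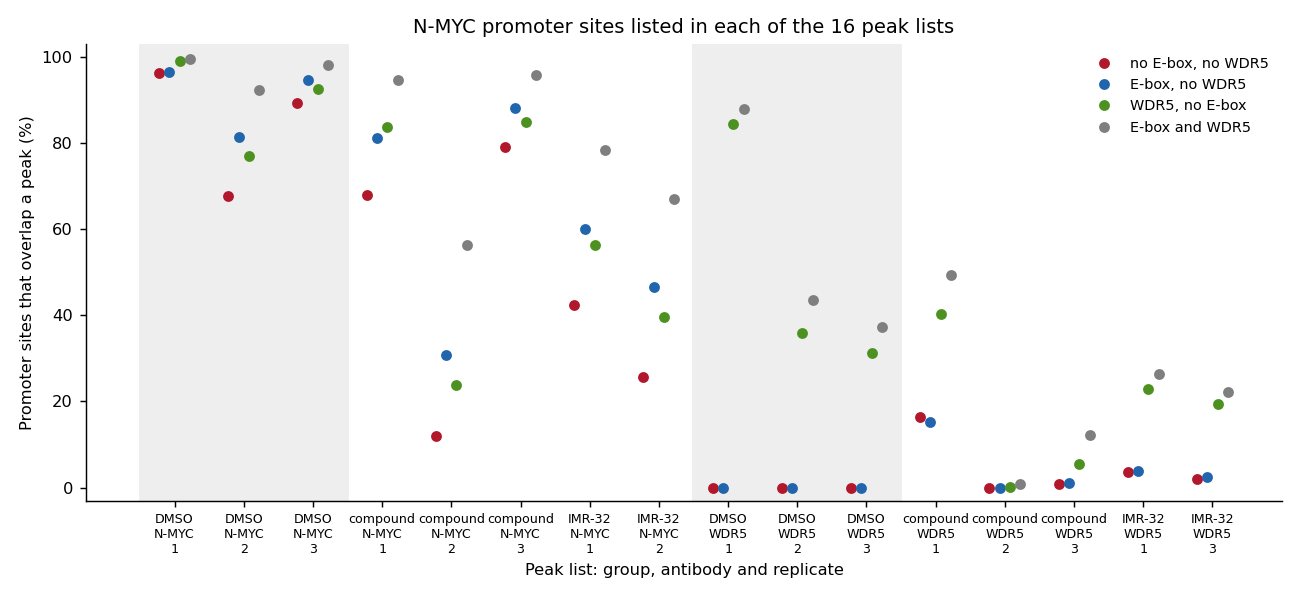
Percent of promoter sites (y axis) that overlapped a peak in each of the 16 lists (x axis), by the presence of CACGTG and of a DMSO WDR5 peak (lone sites have neither); lists shaded grey were used to choose the sites. Lone sites are lowest in each of the 5 N-MYC lists not used, from 12.1% to 79.1%, and sites with both features are highest.

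E-box sites were listed at 81.3%, 30.8% and 88.1% in the compound libraries and at 60.1% and 46.6% in IMR-32. The lone sites were lower in 5 of 5 libraries, with a difference of -15.9 ± 4.73 percentage points (mean ± SD over 5 libraries, range -20.8 to -8.98). The exact sign-flip permutation test over libraries (two-sided) gave p = 0.063, the smallest that 5 libraries allow, so this design cannot pass 0.05. WDR5 sites were listed at 83.7%, 23.9%, 84.9%, 56.3% and 39.7% in the same order. The lone sites were lower than these in 5 of 5 libraries, with a difference of -12.2 ± 3.84 points (range -15.7 to -5.81, exact p = 0.063, again the smallest possible).

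The gap was smaller between sites of like DMSO strength, a measure from the lists that chose the sites. Whether strength accounts for the gap was not tested. Lone sites had lower DMSO percentiles, with medians of 48.3, 40.8 and 44.3 against 66.7, 57.6 and 63.8 for E-box sites. Weighting the comparators to the lone sites' spread over 5 bins of DMSO percentile reduced the difference to -6.16 points against E-box sites and -6.22 against WDR5 sites, with p = 0.063 for both in the exact test. That weighting was chosen after the data were seen. Within the bins, lone sites in the lowest of the 5 bins (388 sites) were listed at 27.7% on average over the 5 libraries and those in the highest (162 sites) at 84.8%. In that highest bin the E-box sites stood at 89.6% and the WDR5 sites at 85.0%, a difference of -4.77 ± 5.04 and -0.225 ± 2.76 points (SD over 5 libraries), both within about 1 SD of 0. In the bin from 60 to 80 the difference from E-box sites was -9.53 ± 4.61 points.

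**Figure D2:**
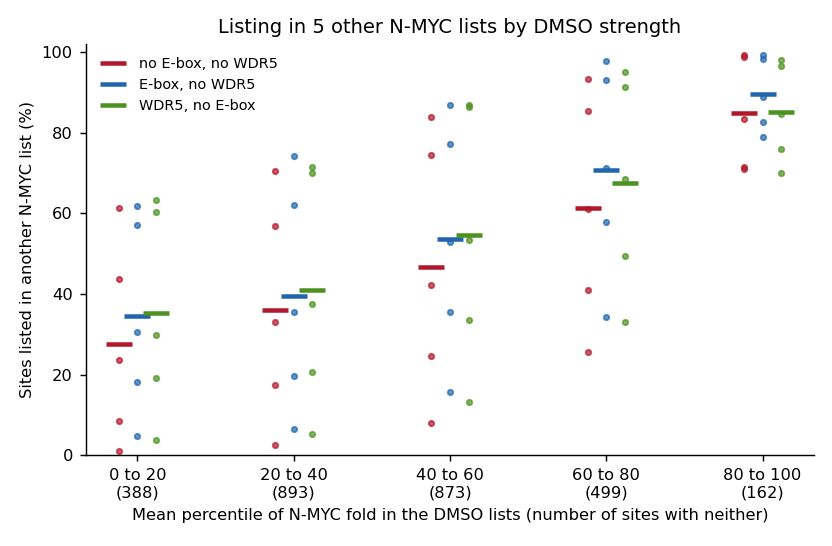
Percent of sites listed in the 5 N-MYC libraries not used to choose them (y axis) by bin of DMSO percentile (x axis), for lone sites, E-box sites and WDR5 sites; points are libraries and bars are means. Listing rises with DMSO percentile in each kind of site, from 27.7% to 84.8% for lone sites.

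Listed lone sites were also weaker within the other lists. Their median percentiles were 44.2, 41.6 and 48.3 in the compound libraries, against 59.5, 48.0 and 66.5 for E-box sites. In IMR-32 they were 46.5 and 42.4 against 65.5 and 61.3. The difference averaged -15.6 ± 5.36 percentile points over 5 libraries (range -19.0 to -6.37, negative in 5 of 5, exact p = 0.063). The smallest difference was in compound replicate 2, the shortest list.

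The same comparison was made inside the DMSO condition with sites rebuilt from 2 of the libraries and read in the third. The held-out library listed 93.8% of lone sites and 95.4% of E-box sites for replicate 1, 62.6% and 79.5% for replicate 2, and 83.6% and 93.1% for replicate 3. The difference was -9.37 ± 7.65 points over 3 libraries (range -17.0 to -1.66). Its exact p was 0.25, the smallest that 3 libraries allow.

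How often a lone site was seen varied strongly among them. All 3 DMSO libraries listed 1501 of them (53.3%) and exactly 2 listed the other 1314 (46.7%), against 72.6% of E-box sites and 68.7% of WDR5 sites in all 3. Sites in all 3 DMSO lists were found in the other 5 lists at 57.2% on average (20.5% to 91.9%). Sites in 2 were found at 32.1% (2.44% to 64.4%). Promoter peaks of a single DMSO library, without CACGTG or WDR5 and not counted among the lone sites, were found at 13.9% (0.139% to 26.4%). The number of DMSO libraries thus ordered the listing in the other libraries, in both the compound and the IMR-32 lists.

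A core of 172 lone sites (6.11%) was in all 8 N-MYC lists, against 20.9% of E-box sites and 13.5% of WDR5 sites. Of these 172, 113 were also in no WDR5 list. At the other end 252 lone sites (8.95%) were in none of the 5 N-MYC lists outside DMSO. Both IMR-32 libraries listed 554 (19.7%) and neither listed 1448 (51.4%). Compound replicates 1 and 3 both listed 1650 (58.6%), and all 3 compound libraries 308 (10.9%).

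WDR5 was listed at 0% to 16.5% of lone sites in the 5 lists outside DMSO. The compound WDR5 libraries listed 16.5%, 0% and 0.817% of lone sites, where the background over all promoter sites was 28.2%, 0.188% and 4.14%. A library with 15 peaks in all, compound WDR5 replicate 2, could list few sites of any kind, and replicate 1 was the longest WDR5 list with 5973 peaks. In IMR-32 WDR5 replicates 1 and 3 the lone sites stood at 3.69% and 1.95%, against backgrounds of 12.6% and 10.0%. These backgrounds include sites chosen for a DMSO WDR5 peak, so shares below them follow in part from the rule. E-box sites, which by construction also had no DMSO WDR5 peak, stood at 15.2%, 0%, 0.972%, 3.75% and 2.36%. The difference between lone and E-box sites was 0.131 ± 0.658 percentage points over 5 libraries (range -0.407 to 1.27), negative in 3, with an exact p of 1. Its sign changed under 8 of 20 alternatives, so no direction is given. WDR5 sites reached 23.0% and 19.3% in the 2 IMR-32 libraries.

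At least 1 of the 5 WDR5 lists outside DMSO held 574 lone sites (20.4%), but 428 of these were in compound WDR5 replicate 1 alone. Without that library, 146 (5.19%) were in at least 1 of the remaining 4 lists. Both IMR-32 WDR5 lists held 30 (1.07%). Of these 30, the site at DTNB, which encodes a dystrophin-associated protein, ranked highest, at 92.4 and 92.8 in the WDR5 lists. Neither IMR-32 N-MYC library listed it, and its DMSO N-MYC percentiles were 9.10, 51.9 and 60.2. AAMP, another of these sites, stood at 73.6 and 75 in the IMR-32 WDR5 lists and at 27.2 and 3.60 in the IMR-32 N-MYC lists. NCOA7, also among the 30, was in all 8 N-MYC lists, and the 5 of highest WDR5 percentile, DTNB and AAMP among them, were not.

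A DMSO WDR5 peak just beyond the edge was uncommon. It lay within 100 bp of 12 lone sites and within 1000 bp of 139 (4.94%), against 6.25% of E-box sites within that distance. A CACGTG just beyond the edge was less rare, within 250 bp of 117 sites (4.16%) and within 1000 bp of 599 (21.3%). The latter share was 19.7% for WDR5 sites, which also lack the hexamer inside the region. The median gap from a lone site to the nearest CACGTG was 3322 bp.

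Variant hexamers filled the summits of the lone sites more often than promoters in general. At least 1 of the 5 variants lay within 100 bp of the summit at 1638 lone sites (58.2%), and WDR5 sites had the same share (58.2%). E-box sites had 43.1%, windows of the same length at 56140 coding TSSs 24.6%, and windows 2 kb away from the lone sites 17.1%. At least 2 kinds were present at 348 lone sites (12.4%), against 3.07% of coding TSSs and 12.6% of WDR5 sites. CACGTG itself was within these windows at 68.2% of E-box sites and 5.43% of coding TSSs.

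CACGCG was the most frequent, at 903 lone sites (32.1%) against 10.2% of coding TSSs, 21.3% of E-box sites and 32.7% of WDR5 sites. CACGAG was at 423 (15%) against 5.08% of coding TSSs, and CATGCG at 329 (11.7%) against 5.75%. CACATG was at 300 (10.7%) against 5.94%, and CAACGTG at 75 (2.66%) against 0.962%. By contrast, any CANNTG form other than CACGTG was at 44.5% of lone sites and 47.3% of coding TSSs. E-box forms as a whole were thus not in excess.

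Other promoter motifs differed in both directions. The GC box GGGCGG, searched on both strands like each motif, was in 60.6% of lone windows and 48.3% of coding TSSs. The pentamer CCAAT was in 19.0% and 23.5%, the ETS motif CCGGAAG in 9.63% and 10.7%, and GCATGCGC in 3.34% and 2.70%. TATAAA was in 1.53% and 5.56%, fewer of the lone windows. Base composition moved with these shares: in windows of 501 bp the median GC content was 67.7% at lone sites, 65.3% at E-box sites, 67.1% at WDR5 sites and 63.1% at coding TSSs. CpG-rich windows made up 90.1% of lone sites, 80.3% of E-box sites and 63.0% of coding TSSs. They were more common at WDR5 sites (95.1%) and at sites with both features (93.4%). The part of composition in the motif shares was not tested.

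Counting letters around each summit gave a measure that compares a site with its own flanks. All 2080 hexamers (a hexamer and its reverse complement counted as 1) were scored by their density within 50 bp of the summit over that from 150 to 250 bp away. Of the 801 hexamers with at least 100 occurrences near lone summits, the 4 of highest ratio were CACGCG (3.26), CATGCG (3.02), CACGAG (2.90) and CACATG (2.79). The median hexamer had a ratio of 1.05 and the 95th percentile was 1.60. CACGCG, for example, occurred 712 times in the inner and 437 times in the outer windows, and the outer windows are the longer. The GC box ratio was 1.24, and the E-box forms CACCTG and CAGCTG had 1.15 and 1.07. At coding TSSs, with the window centred on the TSS, CATGCG had a ratio of 1.98, CACGCG 1.32, CACATG 1.12 and CACGAG 1.03.

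The comparator sites gave ratios in the same range for CACGCG, 2.66 at E-box and 3.15 at WDR5 sites. CACGAG gave 2.40 and 3.15, CATGCG 2.15 and 2.30, and CACATG 1.85 and 2.82. CACGTG itself reached 7.31 at E-box sites. At sites with both features CACGCG had 2.54, CACATG 2.27, CACGAG 1.52 and CATGCG 1.46. The concentration of variants at summits was thus not particular to the lone sites, though CACGAG and CATGCG were less concentrated at sites with both. Variants were also concentrated around the summits that the 5 other N-MYC libraries called at the lone sites. There CACGCG averaged 3.54 ± 0.697 (SD over 5 libraries, 2.79 to 4.33), CACGAG 4.13 ± 1.04, CACATG 3.60 ± 1.04 and CATGCG 2.85 ± 0.959. The GC box stood at 1.20 ± 0.0824 in the same libraries and CAGCTG at 1.14 ± 0.0557. The libraries called summits at many of the same regions, so they are not independent sets of sequence.

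Lone sites with a variant were listed more often in the other libraries than lone sites without. Over the 5 libraries they averaged 49.7% against 39.6%, a difference of 10.1 ± 2.49 points (range 7.55 to 14), higher in 5 of 5. The difference was 9.86 ± 3.09 points for CACGAG, 7.26 ± 3.23 for CACGCG, 5.43 ± 1.97 for CATGCG and 4.84 ± 3.17 for CACATG. It was -0.581 ± 2.42 for the GC box, -2.90 ± 1.69 for CAGCTG and -1.43 ± 0.758 for CACCTG. Other motifs outside the variants had positive differences of like size. CATATG, at 23 lone sites, had 14.6 ± 2.89 points, CTCGCGAG, at 34, had 6.96 ± 5.87, and the ETS motif CCGGAAG, at 271, had 5.04 ± 3.85, each higher in 5 of 5 libraries. AAGATGGCG, higher in 4 of 5, had 6.04 ± 3.91. GCATGCGC, also higher in 4 of 5, had 5.78 ± 4.87, but it contains the variant CATGCG and so is not outside the variants. More frequent listing was thus not particular to the MYC-type variants, though windows with these motifs could also hold a variant. These relations were picked after the data were seen and are given without a test.

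The number of kinds of variant ordered the sites as well. Those with none (1177 sites) were listed at 63.0%, 6.46% and 74.7% with compound and 34.3% and 19.5% in IMR-32. Those with 1 (1290 sites) stood at 69.4%, 14.2%, 81.6%, 46.1% and 28.1%. Those with 2 or more (348 sites) stood at 79.6%, 23.3%, 84.5%, 56.3% and 38.5%. Each library therefore had the same order, with means of 39.6%, 47.9% and 56.4%.

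**Figure D3:**
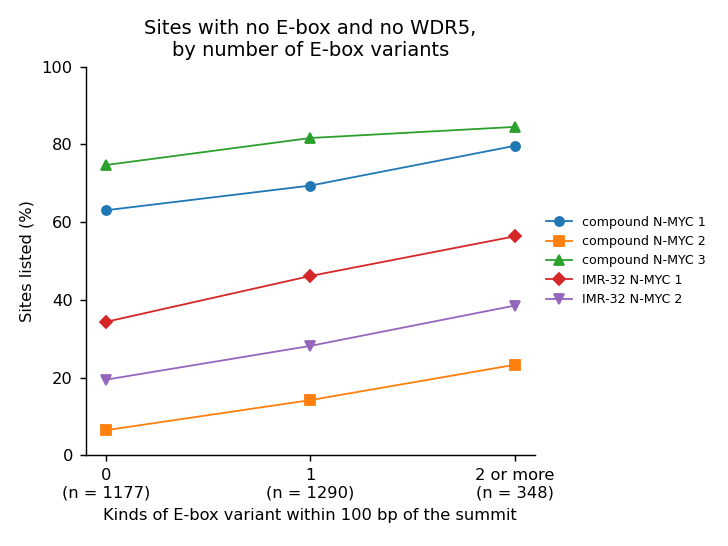
Percent of lone sites listed in the 5 N-MYC libraries not used to choose them (y axis) by the number of kinds of MYC-type variant within 100 bp of the summit (x axis); each line joins the values of a library. All 5 libraries rise from none to 2 or more, and the means are 39.6%, 47.9% and 56.4%.

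DMSO strength moved with the variants too. The median DMSO percentile was 38.3, 44.7 and 54.7 in these 3 sets, and the share of lone sites with a variant was 44.8% in the lowest of the 5 bins of DMSO percentile and 85.2% in the highest. Median width was alike, at 693, 682 and 699.5 bp. Within bins of DMSO percentile the difference in listing was 7.96 ± 7.09, 2.47 ± 3.47, 5.38 ± 4.04, 2.65 ± 4.2 and 10.5 ± 11.3 points from the lowest to the highest bin. All 5 means were above 0, with an SD over libraries near or above the mean in each.

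By position the lone sites sat close to start sites. Their centres lay a median of 113 bp from the nearest TSS, against 158.5 bp for E-box and 100 bp for WDR5 sites. Within 250 bp there were 74.5% of lone sites, 63.6% of E-box sites and 78.6% of WDR5 sites. The limit at 1000 bp chose all 3 kinds alike. The lone sites just inside it were at GPR153 (1000 bp), PCF11 (998 bp) and PHIP (997 bp). Just outside were a site at PFN2 (1001 bp) and sites at a pair of lncRNA genes without symbols (1019 and 1025 bp). The DMSO libraries placed the summit of a lone site within a median range of 99.5 bp of each other, against 72 bp for E-box sites.

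**Figure D4:**
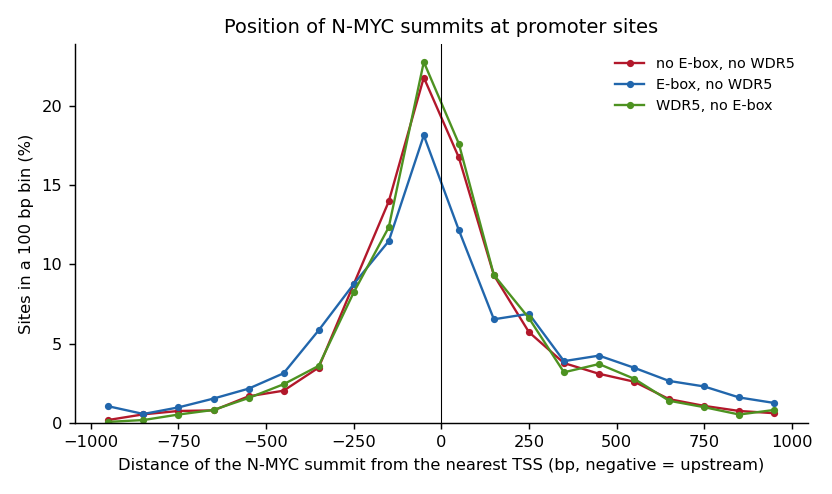
Share of sites (y axis, percent) by distance of the N-MYC summit from the nearest TSS (x axis, bp, negative is upstream) in 100 bp bins for lone sites (no E-box, no WDR5), E-box sites and WDR5 sites. Lone sites peak at the TSS, with 74.5% of their centres within 250 bp.

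Of the summits, 31.8% fell in untranslated or noncoding exon, 30.7% outside genes, 28.3% in introns and 9.31% in coding exon. They were about evenly upstream (54.1%) and downstream of the TSS. TSSs on both strands lay within reach of 835 lone sites (29.7%), against 26.1% of E-box and 37.3% of WDR5 sites. LncRNA start sites were the sole ones at 203 (7.21%). Lone regions were also the narrowest, with a median width of 688 bp against 759.5 bp for E-box and 866 bp for WDR5 sites. A wider region has more room to hold CACGTG or to overlap a WDR5 peak, so this order is tied to the rule. With a peak required within 100 bp of the summit, the same window for each site, the difference from E-box sites was -15.8 points. The part of region width in the listing was not tested.

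The lone sites lay at TSSs of 3652 genes, 2869 protein-coding and 783 lncRNA. That is 14.2% of the 20149 protein-coding genes, and 36.7% had an N-MYC promoter site of some kind. For 2648 of the 2869 coding genes all their N-MYC promoter sites were lone sites. In 24 gene lists chosen with earlier results known, 19 had a larger share than 14.2% and 5 a smaller one. In 23 of the 24 the share with any N-MYC promoter site also exceeded the share over all coding genes, so the lists as a whole were rich in N-MYC sites. Among genes with an N-MYC promoter site, 38.8% of all coding genes had a lone site, and 10 of the 24 lists exceeded that share. Lists below it included DNA repair (19.8%), chaperonin and heat shock (21.1%), ribosome biogenesis (22.4%) and cell cycle (30.2%). The spliceosome (34.7%) and the WDR5 and MLL/SET1 complexes (37.5%) were also below it. A site with WDR5 was at 16.8% of all coding genes, and 21 of the 24 lists were above that. The shares below are read beside these backgrounds. A gene could have sites of more than 1 kind.

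**Figure D5:**
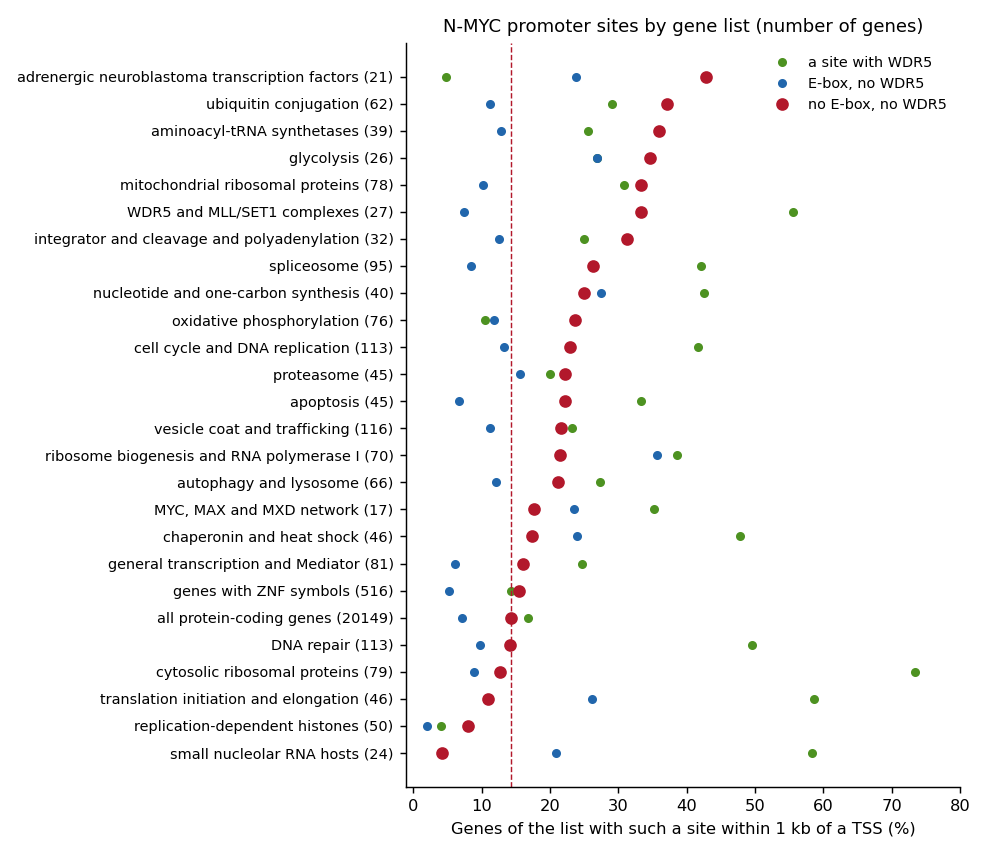
Percent of the genes of each list (x axis) with a lone site (no E-box, no WDR5), an E-box site or any site with WDR5 near a TSS, by gene list (y axis); the dashed line marks the share of all protein-coding genes with a lone site, 14.2%. Adrenergic transcription factors are highest for lone sites (42.9%), and cytosolic ribosomal proteins (12.7%) are below the line. For glycolysis the E-box and WDR5 points coincide at 26.9%.

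The share was highest for transcription factors of the adrenergic neuroblastoma state, the program that keeps these tumour cells in a neuronal identity. Of 21 such genes 9 (42.9%) had a lone site, and 1 (4.76%) had a site with WDR5. Among the 9 were GATA3, KLF7, LMO1, SATB1, TCF3, TCF4, TWIST1 and ZNF536. KLF7, a Krüppel-like factor, had DMSO percentiles of 64.6, 23.2 and 68.7 and was listed in IMR-32 replicate 1 at 52.9. TWIST1, a basic helix-loop-helix factor of neural crest, had DMSO percentiles of 10.8, 65.8 and 77.6 and was in no IMR-32 list. TCF4, an E protein, had 49.1, 30.3 and 17.9 and was in no IMR-32 list either. None of these 3 reached the 80th percentile in a DMSO list.

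Genes of protein synthesis differed in their lone and WDR5 shares. A site with a DMSO WDR5 peak cannot be a lone site, so both shares of a list are tied by the rule. Of 79 cytosolic ribosomal protein genes 10 (12.7%) had a lone site and 58 (73.4%) a WDR5 one. Of 46 translation initiation and elongation genes 5 (10.9%) had a lone site, against 58.7% with WDR5. Of 24 hosts of small nucleolar RNAs 1 (4.17%) had a lone site, SNHG12, against 58.3%. The first 2 of these lists were somewhat below the 14.2% of all coding genes for lone sites. SNHG12 is an lncRNA gene, and over all lncRNA genes the share was 4.19%. In contrast, mitochondrial ribosomal proteins had 26 of 78 (33.3%) against 30.8% with WDR5. Aminoacyl-tRNA synthetases, the enzymes that charge tRNAs, had 14 of 39 (35.9%) against 25.6%.

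Among the cytosolic ribosomal genes RPL10 was strongest, with DMSO percentiles of 95.3, 90.1 and 86.7 and folds of 11.2, 8.83 and 8.43. It was at 95.5, 69.4 and 97.6 with compound, at 67.4 in IMR-32 replicate 1 and not listed in replicate 2. RPL10 is the sole lone site among the 4 loci that the study's ChIP-QPCR panel used as not WDR5-bound. The synthetases were weaker, and GARS1, the glycyl-tRNA synthetase, had DMSO percentiles of 73.5, 86.8 and 5.64.

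Of 70 ribosome biogenesis and RNA polymerase I genes 15 (21.4%) had a lone site, against 38.6% with WDR5. Beside NOLC1, NOP16, a nucleolar protein of the large subunit, was in all 8 N-MYC lists, with DMSO percentiles of 85.5, 96.8 and 81.6 and IMR-32 percentiles of 88.4 and 92.1. WDR12, a partner of PES1 and BOP1 in large subunit maturation, had 95.8, 54.4 and 85.4 in DMSO and 54.3 and 73.8 in IMR-32. Compound replicate 2 did not list it.

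Metabolic lists differed. Glycolysis had 9 of 26 (34.6%), among them HK1, HK2, GPI, TPI1, PKM and LDHA, against 26.9% with WDR5, and its lone-site share was 45% among genes with an N-MYC promoter site. SLC2A1, the glucose transporter GLUT1, had DMSO percentiles of 84.5, 89.7 and 89.4. The compound libraries had it at 25.8, 46.8 and 85.3, and no IMR-32 library listed it. PKM, pyruvate kinase, was weaker in DMSO, at 88.6, 57.4 and 14.4, but was in both IMR-32 lists, at 90.6 and 74.0.

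Oxidative phosphorylation had 18 of 76 (23.7%) against 10.5% with WDR5, and 52.9% among genes with an N-MYC site. Nucleotide and one-carbon synthesis had 10 of 40 (25%) against 42.5%, and 27.8% among genes with an N-MYC site, below the 38.8% of all coding genes. In this list UCK2, the uridine-cytidine kinase, was in all 8 N-MYC lists, with DMSO percentiles of 85.9, 97.0 and 94.4 and IMR-32 percentiles of 86.3 and 86.2. ADSS2, an enzyme of AMP synthesis, had 98.3, 92.0 and 60.4 in DMSO and 39.2 and 18.8 in IMR-32. It was also in compound WDR5 replicate 1, at a WDR5 percentile of 97.7.

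Ubiquitin conjugation had 23 of 62 (37.1%) against 29.0% with WDR5. UBE2K, an E2 enzyme that builds ubiquitin chains, had DMSO percentiles of 97.9, 57.8 and 97.0 and IMR-32 percentiles of 92.6 and 89.5. UBE2D2, a widely used E2, was in all 8 N-MYC lists, at 80.6, 96.9 and 60.8 in DMSO. The proteasome itself had 10 of 45 (22.2%). Vesicle trafficking had 25 of 116 (21.6%) against 23.3%, and autophagy and lysosome 14 of 66 (21.2%) against 27.3%.

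Genes of RNA processing stood at 25 of 95 (26.3%) for the spliceosome, against 42.1% with WDR5, and 10 of 32 (31.3%) for integrator and cleavage factors, against 25%. SNRPD1, an Sm core protein, was in all 8 N-MYC lists, with DMSO percentiles of 84.4, 92.2 and 94.0 and IMR-32 percentiles of 87.8 and 82.1. General transcription and Mediator had 13 of 81 (16%) against 24.7%. The subunits of WDR5's own complexes had 9 of 27 (33.3%), among them HCFC1, KMT2B and MEN1, and 55.6% had a site with WDR5. HCFC1, a host cell factor found with SET1 complexes, had DMSO percentiles of 89.9, 56.9 and 65.1 and IMR-32 percentiles of 84.3 and 87.6.

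Cell cycle and DNA replication had 26 of 113 (23.0%) against 41.6% with WDR5. CKS2, a subunit of cyclin-dependent kinase complexes, was in all 8 N-MYC lists, with DMSO percentiles of 95.8, 78.6 and 50.6. DNA repair had 16 of 113 (14.2%), close to the share of all coding genes, against 49.6% with WDR5. Among genes with an N-MYC promoter site, however, DNA repair stood at 19.8%, below the 38.8% of all coding genes. Its strongest members were ATM, the kinase that signals double-strand breaks, at 92.0, 51.9 and 88.7, and PARP1 at 75.5, 57.4 and 92.9. The apoptosis list had 10 of 45 (22.2%) against 33.3%. Chaperonin and heat shock had 8 of 46 (17.4%) against 47.8%.

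The MYC, MAX and MXD network had 3 of 17 (17.6%), MXI1, MYCBP and MYCL. MXI1, a MAX partner that represses, had DMSO percentiles of 53.3, 52.6 and 34.1. Genes with ZNF symbols, a set taken by name beside the 24 lists, had 80 of 516 (15.5%) against 14.3% with WDR5. Replication-dependent histones were low in both, 4 of 50 (8%) and 4%. Over the 24 lists, 9 had more genes at lone sites than at sites with WDR5.

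Across the 67 lone sites named through these lists, 19 were in all 8 N-MYC lists and 15 in some WDR5 list. Compound replicate 3 listed 65 of them, compound replicate 2 listed 25, and 11 were in neither IMR-32 N-MYC list. They were the strongest of each list among sites in all 3 DMSO N-MYC lists. These counts thus describe the upper end of the lone sites and not all of them.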

How the data were processed

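The analysis began from 16 ChIP-seq peak lists of both cell lines, 94408 peaks in all. Before deposit the authors used Cutadapt for trimming, Bowtie2 for alignment (hg19) and MACS2 for calling, per library and at a q-value of 0.05. The control library given to MACS2 is not given in the sources used here. Each deposited peak has a fold enrichment (a ratio over background) and a −log10 q-value, made by the authors and not rescaled here. Folds were compared only as percentiles within a list. DMSO N-MYC peaks were merged at 1 bp, kept with 2 or more libraries, and annotated with 84648 TSSs of GENCODE 44 on GRCh37; all chromosomes matched and no peak passed a chromosome end. A site was listed where it overlapped a peak by 1 bp.

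Differences between kinds of site were taken within each library and tested by exact sign-flip permutation over libraries, a procedure also tested on simulated data. The members, lists and tests were chosen with earlier results of these data known. Named sites were the 10 of highest mean DMSO percentile, the 5 highest in the other N-MYC lists, up to 5 by WDR5 in both IMR-32 lists, the top 3 per gene list, QPCR loci and sites next to the 1 kb limit; some of these are not reported here. For naming, the mean DMSO percentile was taken only at sites in all 3 DMSO N-MYC lists. Of 1411 gene list entries 1407 were in the annotation. Python 3.11.15, NumPy 2.4.6, pysam 0.24.0, samtools 1.23.1 and matplotlib 3.10.9 were used. Depth is unknown, so no counting interval is given. Alternatives covered peak threshold, libraries required, hexamer window, TSS set and distance, overlap, each library left out, a replicate block, summit window and DMSO strength.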

Additional observations from a re-analysis of the deposited data

How the results depend on the processing

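The listing of lone sites below E-box sites kept its direction under 21 alternatives, from -17.6 to -14.2 points when a library was left out and from -17.2 to -6.16 under the others. Against WDR5 sites the 21 alternatives gave -13.8 to -10.5 and -13.6 to -6.22. The percentile difference kept its direction under 18 (-17.9 to -14.0 and -19.0 to -14.3), and the held-out difference under 6 (-13.2 to -5.57 and -9.76 to -8.78). For the values nearest 0, -6.16 and -6.22, comparators were weighted to the lone sites' DMSO strength.

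The WDR5 listing difference of 0.131 points reversed to -0.0585 with −log10 q of at least 3, to -0.936 with WDR5 regions of 2 or more libraries, to -0.0604 with protein-coding TSSs and to -0.127 with overlap of most of the peak required. With a library left out it ran from -0.649 to 0.266. It reversed to -0.649, -0.0980 and -0.0277 without DMSO WDR5 replicates 1, 2 and 3, and to -0.154 without compound WDR5 replicate 1. The cause was not tested.

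The number of lone sites fell to 1501 when all 3 DMSO N-MYC libraries were required. It ran from 1666 to 3686 with a library left out, with 1666 without N-MYC replicate 1 and 1826 without replicate 3, which require both remaining libraries. Under the other alternatives it ran to 3958.

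Same-numbered libraries share only a number. With a replicate block the differences were -14.7 (E-box), -11.2 (WDR5 sites), 0.109 (WDR5 listing) and -16.0 (percentile), and the block changed no direction. The weighting and the window within 100 bp of the summit were added after seeing the data. No test here could pass 0.05, since 5 libraries allow 0.063 and 3 allow 0.25. Unlisted regions may hold signal below the calling threshold, depth being unknown.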
